A study of Homo sapiens with 4 samples.

Results

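The 33 genes described here encode the enzymes of cholesterol synthesis (18 genes), the regulators and carriers of sterols that control them (5 genes), the enzymes of fatty acid synthesis and desaturation (7 genes), and targets of the liver X receptors, the oxysterol-sensing nuclear receptors (3 genes). They were taken by gene symbol from a table of 60623 genes, and all 33 symbols were found. RNA-seq was performed in T24 cells, a cell line derived from a human bladder carcinoma and grown in RPMI medium with serum. Control T24 cells (2 libraries) were compared with T24 cells overexpressing CBX7 (2 libraries), a chromobox subunit of the polycomb repressive complex PRC1. The overexpression plasmid carried full-length CBX7 in a pCDH-3xFLAG vector, and the sources used here do not say whether the cells were 1 clone, what vector the control cells carried or whether replicates came from separate cultures, so p-values measure the spread between libraries, which may be technical. Reads of the introduced and the endogenous CBX7 are counted together. The question here was whether the sterol and fatty acid pathway moved, step by step, with CBX7.

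Cells make cholesterol from acetyl-CoA through mevalonate, isoprenoid units, squalene and lanosterol. The transcription factors SREBP1 and SREBP2, made from SREBF1 and SREBF2, control most of these enzymes and those of fatty acid synthesis. SCAP escorts SREBPs from the endoplasmic reticulum to the Golgi for cleavage when sterols are scarce, and INSIG1 holds SCAP back when sterols are plentiful. Since INSIG1 and many enzymes are themselves SREBP targets, the genes of this pathway are known to rise and fall together. In the opposite state, oxysterols activate the liver X receptors, which raise cholesterol exporters such as ABCA1 and ABCG1, and also SREBF1.

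The promoters of the genes were read from RefSeq (GRCh38.p14), from 250 bases before to 50 bases after each start site. A promoter was held for 28 of the 33 genes. The entries for FDFT1, SQLE, FASN, ACAT2 and ABCG1 were missing. Both strands were searched for TCACNCCAC, a core of the sterol response element bound by SREBPs, for CACGTG, the E-box, and for CCAAT, the box of NF-Y, a factor known to act beside SREBPs. The CCAAT box was found in 21 of the 28 genes (75%) and in 39.7% of 27305 genes with a promoter. CACGTG was found in 5 of the 28 genes (17.9%; LSS, SC5D, INSIG1, SCAP and ABCA1) and in 8.77% of all genes. The sterol element core as spelled here was found in 1 of the 28 genes (3.57%), SREBF2, and in 1.39% of all genes. Matches are descriptions of letters and not of bound sites. The windows below are a selection from the matches in regulators and in genes whose values are given at length. Capitals mark the matched motif (on the opposite strand, CCAAT reads ATTGG), and sequences run 5′ to 3′, and positions count from the start site, which is 1.
SREBF2 sterol response element core, chr22:41832962-41832991 (plus strand): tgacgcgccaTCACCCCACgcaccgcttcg
INSIG1 E-box, chr7:155297811-155297840 (plus strand): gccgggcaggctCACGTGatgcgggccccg
INSIG1 NF-Y box, chr7:155297696-155297725 (plus strand): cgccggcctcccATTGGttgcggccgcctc
MVK NF-Y box, chr12:109573688-109573717 (plus strand): aacacctattgaCCAATgttcaagcctatt
SCD NF-Y box, chr10:100346992-100347021 (plus strand): gattgcgccgagCCAATggcaacggcagga
SCD NF-Y box, chr10:100347035-100347064 (plus strand): aattcccttcggCCAATgacgagccggagt
FADS2 NF-Y box, chr11:61816397-61816426 (plus strand): tccgcaggacacCCAATcaccgggcaacag
SREBF2 holds the sterol element at -133 and also a CCAAT box at -106, which is not shown, nor is the E-box of SCAP at -58. In INSIG1 the E-box lies at -55 and a CCAAT box at -170. MVK has 5 CCAAT boxes in its window, of which the one at -94 is shown, and SCD has 2, both shown. The single FADS2 box lies just after the start site, at 6.

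The level of the introduced gene fitted the label of every library. CBX7 had 10.9 and 9.67 CPM (TMM-normalized CPM, the unit of all normalized counts here) in the control libraries and 1774 and 1595 CPM in the CBX7 libraries, a log2 fold change of 7.35 (SE 0.18). Library totals lay between 20800910 and 25135488 expected counts. KRT8 and KRT18, keratins of simple epithelia, were abundant (957 to 1413 CPM). KRT7 was also abundant, with 1242 and 1173 CPM in the control libraries and 1761 and 1174 CPM in the CBX7 libraries. Of 13 urothelial and epithelial markers, 7 had at most 3 counts in every library, the uroplakins, CDH1 and KRT5 among them, and KRT5 had 0. KRT8 and KRT18 do not mark the bladder in particular. Markers of other cell types (13 genes) summed to 4.02 and 4.81 CPM in control and 5.26 and 6.67 CPM in CBX7 libraries, and 6 of the 13 had at most 3 counts in every library. The epithelial markers summed to 3393 and 3157 CPM in control and 4596 and 3310 CPM in CBX7 libraries. The part of these sums in the results was not tested. The CBX7 libraries differed from each other far more than the control libraries did, with a chi-square per degree of freedom of 37.7 against 4.54.

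No gene of the pathway passed the test between CBX7-overexpressing and control cells. Of the 33 genes, 32 had enough counts to be tested, and 0 of 32 reached an adjusted p under 0.05 in edgeR's quasi-likelihood test (lowest adjusted p = 0.951), where 3 of 14862 genes (0.0202%) did. At an unadjusted p under 0.05 there were again 0 of 32 in either direction, against 3.42% of all genes higher and 1.32% lower. DESeq2's Wald test also called 0 of the 32 genes. The log2 fold changes ran from -0.10 in ACLY to 0.42 in PMVK, 26 of 32 lay within 0.2 of 0, and none exceeded 1.5-fold. Their median was 0.052, beside 0.0017 over all genes tested. On deposited TPM values the median of the pathway was -0.048, while that of all genes was -0.081 and, with the smaller pseudocount, -0.10. With 2 libraries per group the error was wide: the 95% confidence interval of a log2 fold change had a median half-width of 0.37, and an exact two-sided permutation test of 1 gene cannot go below p = 0.333. Changes smaller than such an interval were not detectable here. The interval is that of 1 gene without adjustment, so larger changes could also miss an adjusted p under 0.05. In bulk RNA, fewer cells with a transcript and less of it per cell cannot be told apart.

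In 7 of 32 genes both CBX7 libraries exceeded both controls (21.9%), where 15.4% of all genes did. They were MVK, PMVK, FDFT1, HSD17B7, DHCR7, SREBF1 and FADS2. Both lay below in 1 gene, INSIG1 (3.12%), where 14.8% of all genes did. In the remaining 24 genes the groups overlapped. On TPM values the counts were 4 above (MVK, PMVK, HSD17B7 and EBP) and 2 below (ACAT2 and INSIG1), so MVK, PMVK and HSD17B7 lay above on both scales. The share of all genes on TPM values is not given here, so these TPM counts cannot be read as many or few.

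**Figure D1:**
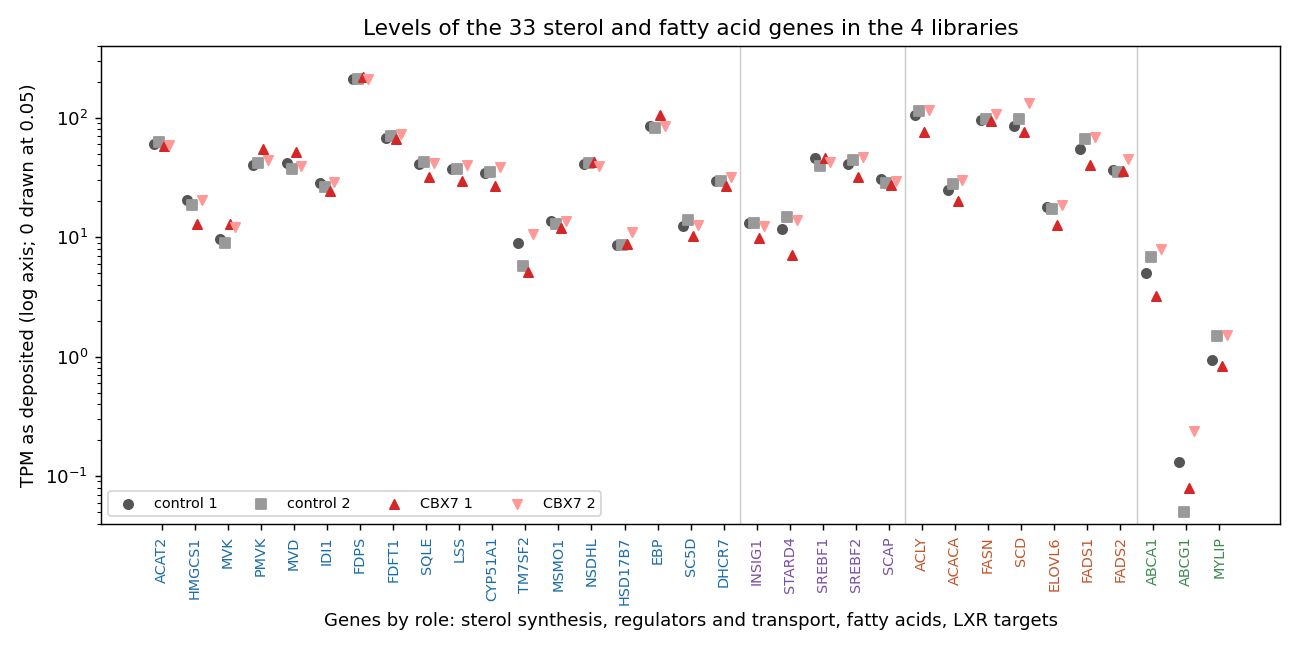
Deposited TPM (log axis; a value of 0 is drawn at 0.05) of the 33 genes in control replicates 1 and 2 (grey) and CBX7 replicates 1 and 2 (red), with genes grouped and coloured by role. FDPS was the most abundant (211 to 221 TPM), ABCG1 the least (0 to 0.24 TPM), and for most genes the 4 points lie close together.

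The 18 enzymes of sterol synthesis had a median log2 fold change of 0.14 on normalized counts, with 15 positive and 3 negative, but -0.014 on TPM values, against -0.081 for all genes there. None passed the test, and 5 of 18 (27.8%) had both CBX7 libraries above both controls, where 15.4% of all genes did. Its size differed between the CBX7 libraries: without CBX7 replicate 1 the median was 0.037, and without CBX7 replicate 2 it was 0.20. The median deviation from the mean of the 4 libraries was -0.040 and -0.085 in the controls, 0.13 in CBX7 replicate 1 and -0.0073 in CBX7 replicate 2. The medians of both CBX7 libraries thus lay above those of both controls, and that of replicate 1 by more. Of the 18 genes, 6 and 4 lay above their own mean in the controls, 14 in CBX7 replicate 1 and 7 in CBX7 replicate 2.

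The first steps join acetyl-CoA units. ACAT2, which condenses a pair of them, had 59.9 and 60.5 CPM in the control libraries and 69.4 and 56.1 CPM in the CBX7 libraries, so that the control values lay between the CBX7 values. HMGCS1, which adds the next unit, had control values of 36.4 and 35.3 CPM and CBX7 values of 32.8 and 36.9 CPM. Neither gene separated the groups.

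On normalized counts of all 4 libraries the largest fold changes among the 32 tested genes were those of MVK and PMVK, the kinases that act on mevalonate. Of these 32, SCD was largest after the length and GC correction (0.35) and without CBX7 replicate 1 (0.49). Without CBX7 replicate 2, EBP (0.63), ABCA1 (-0.61) and MVD (0.59) exceeded MVK (0.51). Without control replicate 2, EBP (0.320) exceeded MVK (0.317). ABCG1, with few counts, is outside this ranking. MVK (mevalonate kinase, ENSG00000110921, chr12:109573255-109598117, plus strand) had 16.5 and 15.2 CPM in control cells and 22.7 and 18.5 CPM in CBX7-overexpressing cells (gene positions are those of GENCODE release 29 on GRCh38). Both CBX7 libraries were above both controls, and the log2 fold change was 0.37 (SE 0.16, 95% interval -0.032 to 0.78), with an edgeR adjusted p = 0.951. Without CBX7 replicate 1 it was 0.23. PMVK (phosphomevalonate kinase, ENSG00000163344, chr1:154924734-154936991, minus strand) had 23.8 and 23.5 CPM in the control libraries and 38.6 and 24.6 CPM in the CBX7 libraries. Here CBX7 replicate 1 stood far above the other 3 libraries, which lay within 23.5 to 24.6 CPM. The log2 fold change of PMVK was 0.42 (SE 0.23, 95% interval -0.16 to 1.00), and 0.064 without CBX7 replicate 1. MVD, the decarboxylase that ends the series, had control values of 39.6 and 35.9 CPM and CBX7 values of 56.8 and 36.3 CPM, and again CBX7 replicate 1 alone was high. Its log2 fold change of 0.30 (SE 0.23, 95% interval -0.28 to 0.89) became -0.054 without that library.

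The isoprenoid steps that follow had smaller differences. IDI1, the isomerase that makes the reactive isoprenoid unit, had 42.0 and 38.6 CPM in control cells and 44.3 and 41.5 CPM in CBX7-overexpressing cells. FDPS, which builds farnesyl diphosphate, had the highest level per length of all 33 genes, with control values of 213 and 212 TPM and CBX7 values of 221 and 211 TPM. In normalized counts FDPS had 151 and 141 CPM in the control libraries and 182 and 142 CPM in the CBX7 libraries, a log2 fold change of 0.15 (SE 0.16, 95% interval -0.26 to 0.56) that was -0.041 without CBX7 replicate 1. Both controls and CBX7 replicate 2 lay close together and CBX7 replicate 1 was above them. FDFT1, squalene synthase, commits the chain to sterols and had control values of 80.7 and 79.9 CPM and CBX7 values of 93.3 and 83.7 CPM. The FDFT1 values of both CBX7 libraries were higher, at a log2 fold change of 0.14 (SE 0.13, 95% interval -0.19 to 0.47) that was 0.065 without CBX7 replicate 1.

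From squalene to lanosterol no separation was seen. SQLE, squalene epoxidase, had 74.3 and 79.4 CPM in control cells and 67.1 and 78.1 CPM in CBX7-overexpressing cells. LSS, which closes the rings of lanosterol, had 112 and 113 CPM in the control libraries and 112 and 111 CPM in the CBX7 libraries, and was the most even of the sterol genes across the libraries. CYP51A1, the lanosterol demethylase, had control values of 76.8 and 74.7 CPM and CBX7 values of 71.6 and 80.2 CPM. For LSS the log2 fold change was -0.014 (SE 0.12, 95% interval -0.32 to 0.29).

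The late steps that turn lanosterol into cholesterol were mixed. EBP, the sterol isomerase (ENSG00000147155, chrX:48521158-48528716, plus strand), had 53.4 and 50.8 CPM in control cells and 80.6 and 52.8 CPM in CBX7-overexpressing cells. CBX7 replicate 1 stood apart and the other CBX7 library lay between the controls, with a log2 fold change of 0.36 (SE 0.22, 95% interval -0.20 to 0.91) that was 0.024 without replicate 1. DHCR7, a sterol reductase of the last steps, had 50.7 and 49.6 CPM in the control libraries and 57.4 and 54.1 CPM in the CBX7 libraries, with both CBX7 libraries higher and a log2 fold change of 0.15 (SE 0.13, 95% interval -0.17 to 0.47), but of -0.027 on TPM values. HSD17B7, a sterol ketoreductase, had control values of 7.80 and 7.86 CPM and CBX7 values of 9.77 and 7.97 CPM, also higher in both but in 1 of them by little, and the log2 fold change without CBX7 replicate 1 was 0.030. NSDHL, which removes the methyl groups together with MSMO1, had 48.6 and 47.7 CPM in control cells and 60.2 and 45.6 CPM in CBX7-overexpressing cells. MSMO1 itself had 20.8 and 18.0 CPM in the control libraries and 20.5 and 19.6 CPM in the CBX7 libraries, with the groups overlapping. SC5D, a desaturase, had control values of 23.8 and 26.6 CPM and CBX7 values of 24.6 and 28.0 CPM, where each CBX7 library was matched by a control library. TM7SF2, another reductase, had 5.91 and 4.62 CPM in control cells and 5.88 and 6.04 CPM in CBX7-overexpressing cells. Its TPM values spread more, with 8.86 and 5.76 TPM in control cells and 5.07 and 10.6 TPM in CBX7-overexpressing cells.

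**Figure D2:**
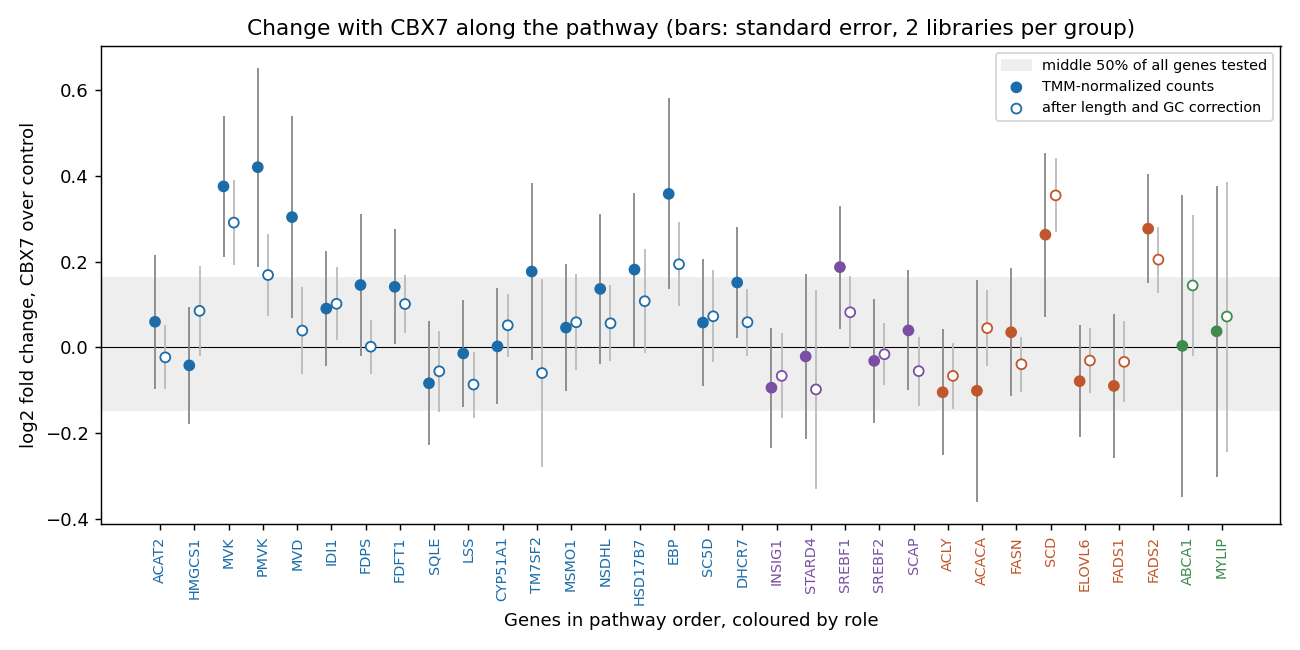
Log2 fold change (CBX7 over control) with its standard error for the 32 genes tested, in pathway order and coloured by role, from normalized counts (filled) and after correction for gene length and GC content (open), with 2 libraries per group. The grey band holds the middle 50% of all genes tested (-0.14 to 0.16), and most filled points lie in it, while PMVK, MVK, EBP and MVD reach from 0.30 to 0.42 before and from 0.039 to 0.29 after the correction.

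The regulators did not separate as a group, with a median log2 fold change of -0.021 on normalized counts and -0.14 on TPM values (2 positive and 3 negative of 5 on counts). Without CBX7 replicate 1 it was 0.087, and without CBX7 replicate 2 it was -0.093. SREBF1 (ENSG00000072310, chr17:17810399-17837002, minus strand), the factor known above all for fatty acid genes, had 99.9 and 91.0 CPM in the control libraries and 116 and 101 CPM in the CBX7 libraries. Both CBX7 libraries were higher, one of them only slightly, and the log2 fold change was 0.19 (SE 0.14, 95% interval -0.17 to 0.54), or 0.087 without CBX7 replicate 1. SREBF2, the factor of the sterol genes, had control values of 159.7 and 165 CPM and CBX7 values of 145 and 173 CPM, with the controls between the CBX7 values. Per length the transcripts of both factors were similar in abundance, with 45.8 and 39.8 TPM in the control libraries and 46.1 and 42.9 TPM in the CBX7 libraries for SREBF1 and control values of 41.3 and 44.7 TPM and CBX7 values of 32.1 and 47.0 TPM for SREBF2. SCAP, their escort, had 77.5 and 73.0 CPM in control cells and 82.4 and 72.2 CPM in CBX7-overexpressing cells. INSIG1 (ENSG00000186480, chr7:155297776-155310235, plus strand), the retention factor and a sensitive SREBP target, had 24.1 and 21.4 CPM in the control libraries and 21.4 and 21.3 CPM in the CBX7 libraries. It was the one gene with both CBX7 libraries below both controls, but control replicate 2 was nearly level with them and the log2 fold change was -0.094 (SE 0.14, 95% interval -0.44 to 0.25). It was -0.0083 without control replicate 1, -0.18 without control replicate 2 and -0.23 on TPM values. STARD4, a sterol carrier, had control values of 28.2 and 29.1 CPM and CBX7 values of 23.6 and 32.9 CPM, with the CBX7 libraries on either side of the controls.

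Among the 7 fatty acid genes the median log2 fold change was -0.079, with 3 positive and 4 negative, and the CBX7 libraries differed from each other. All 7 genes lay above the mean of the 4 libraries in CBX7 replicate 2, and 1 of 7 did so in CBX7 replicate 1. Without CBX7 replicate 1 the median was 0.18, and without CBX7 replicate 2 it was -0.13.

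ACLY, which makes cytosolic acetyl-CoA from citrate, had 331 and 348 CPM in control cells and 285 and 346 CPM in CBX7-overexpressing cells. CBX7 replicate 1 was the lowest library and replicate 2 lay within the controls. ACACA (ENSG00000278540, chr17:37084988-37406818, minus strand), the carboxylase of the committed step, had 101 and 121 CPM in the control libraries and 78.1 and 129 CPM in the CBX7 libraries, the lowest and the highest of the 4 values both being CBX7 libraries. Its log2 fold change was -0.10 (SE 0.26, 95% interval -0.74 to 0.54). FASN, fatty acid synthase, had control values of 381 and 402 CPM and CBX7 values of 361 and 441 CPM and the same arrangement, with a log2 fold change of 0.035 (SE 0.15, 95% interval -0.33 to 0.41). ELOVL6, an elongase, had 49.5 and 47.5 CPM in control cells and 44.3 and 47.5 CPM in CBX7-overexpressing cells. None of these 4 genes separated the groups.

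The desaturases differed among themselves. SCD (ENSG00000099194, chr10:100347124-100364834, plus strand), which introduces the double bond of oleate, had 337 and 373 CPM in the control libraries and 356 and 496 CPM in the CBX7 libraries. CBX7 replicate 2 was clearly the highest and replicate 1 lay between the controls. The log2 fold change of SCD was 0.26 (SE 0.19, 95% interval -0.21 to 0.74), and 0.0023 without CBX7 replicate 2. FADS2 (ENSG00000134824, chr11:61792980-61867354, plus strand), a desaturase of polyunsaturated fatty acids, had control values of 70.4 and 67.0 CPM and CBX7 values of 83.5 and 83.0 CPM. On normalized counts the CBX7 libraries were close to each other and both above the controls, with a log2 fold change of 0.28 (SE 0.13, 95% interval -0.040 to 0.59) and an edgeR adjusted p = 0.951. On TPM values the groups overlapped, with 36.4 and 35.2 TPM in control cells and 35.6 and 45.2 TPM in CBX7-overexpressing cells, and the difference was 0.16 on the log2(TPM + 1) scale. Its neighbour FADS1 (ENSG00000149485, chr11:61799625-61829318, minus strand), another desaturase, had 172 and 193 CPM in control cells and 151 and 193 CPM in CBX7-overexpressing cells. FADS1 did not separate the groups, and its log2 fold change was -0.090 (SE 0.17, 95% interval -0.51 to 0.33). The annotated spans of FADS1 and FADS2 overlap on opposite strands, and the strand used in counting is not given in the sources used here, so reads in the shared stretch cannot be told apart. In all, 8 of the 33 genes overlap another protein-coding gene in GENCODE release 29, and 5, FDPS among them with 8, have pseudogene copies that could share reads.

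The targets of the liver X receptors did not separate the groups. ABCA1 (ENSG00000165029, chr9:104781002-104928237, minus strand), the cholesterol exporter, had 39.1 and 51.0 CPM in the control libraries and 29.5 and 60.8 CPM in the CBX7 libraries. The CBX7 libraries were the lowest and the highest of the 4, and the log2 fold change was 0.0035 (SE 0.35, 95% interval -0.87 to 0.88). Without CBX7 replicate 1 it was 0.44 (edgeR adjusted p = 0.00565), and without CBX7 replicate 2 it was -0.61 (edgeR adjusted p = 6.65e-06). MYLIP, a ubiquitin ligase, had control values of 2.10 and 3.19 CPM and CBX7 values of 2.19 and 3.22 CPM, with the high and low values split between the groups. ABCG1, the partner exporter, had 7 and 0 expected counts in the control libraries and 3 and 10 in the CBX7 libraries, and was not tested. In the library with none, up to 3 counts (0.144 CPM) could have been missed.

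**Figure D3:**
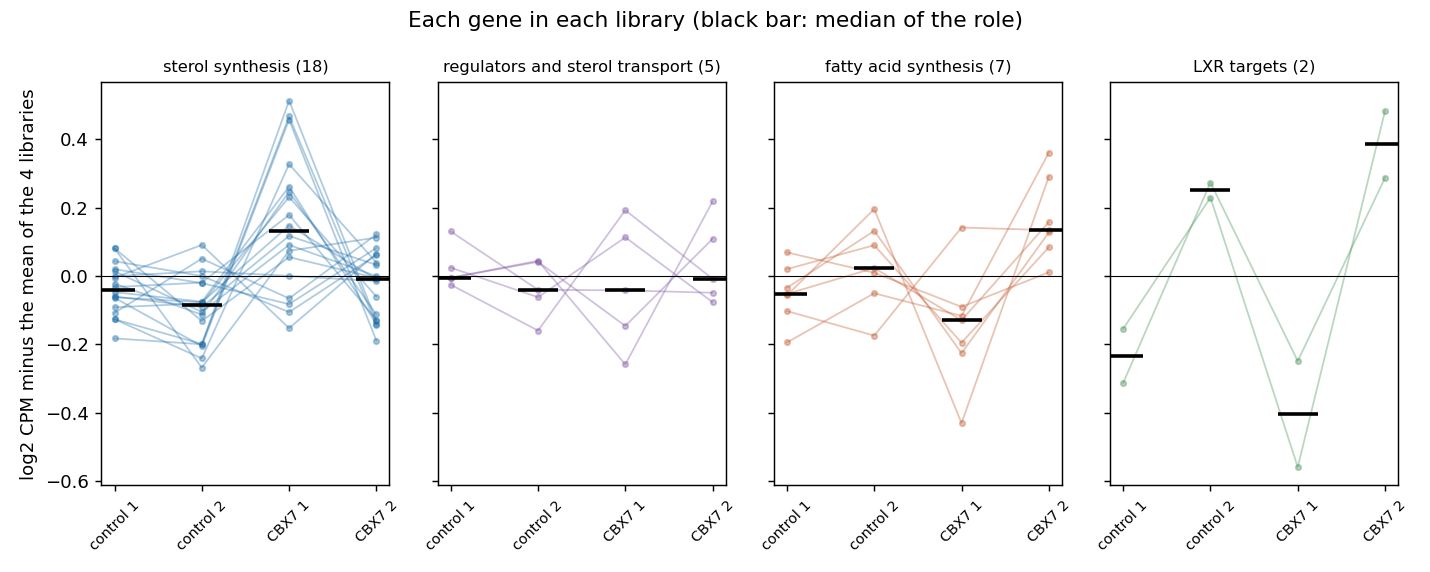
Log2 CPM of each tested gene minus its mean over the 4 libraries, by role, with lines joining a gene across libraries and a black bar for the median of the role. In CBX7 replicate 1 the median lay at 0.13 for sterol genes and -0.13 for fatty acid genes, and in CBX7 replicate 2 at -0.0073 and 0.13.

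Gene length moved with these differences. Across the 32 genes, the log2 ratio of CBX7 replicate 1 to CBX7 replicate 2 and gene length gave a Spearman correlation of -0.68, and the 11077 genes averaging 100 or more counts gave -0.70. These are descriptions over genes that share the same libraries. The sterol enzymes had a median length of 2059 bases and the fatty acid enzymes of 4364 bases, while ACACA with 10013 and ABCA1 with 10408 bases were the longest. The fold changes of the 32 genes had a Spearman correlation of -0.50 with length, and of -0.031 after correction.

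**Figure D4:**
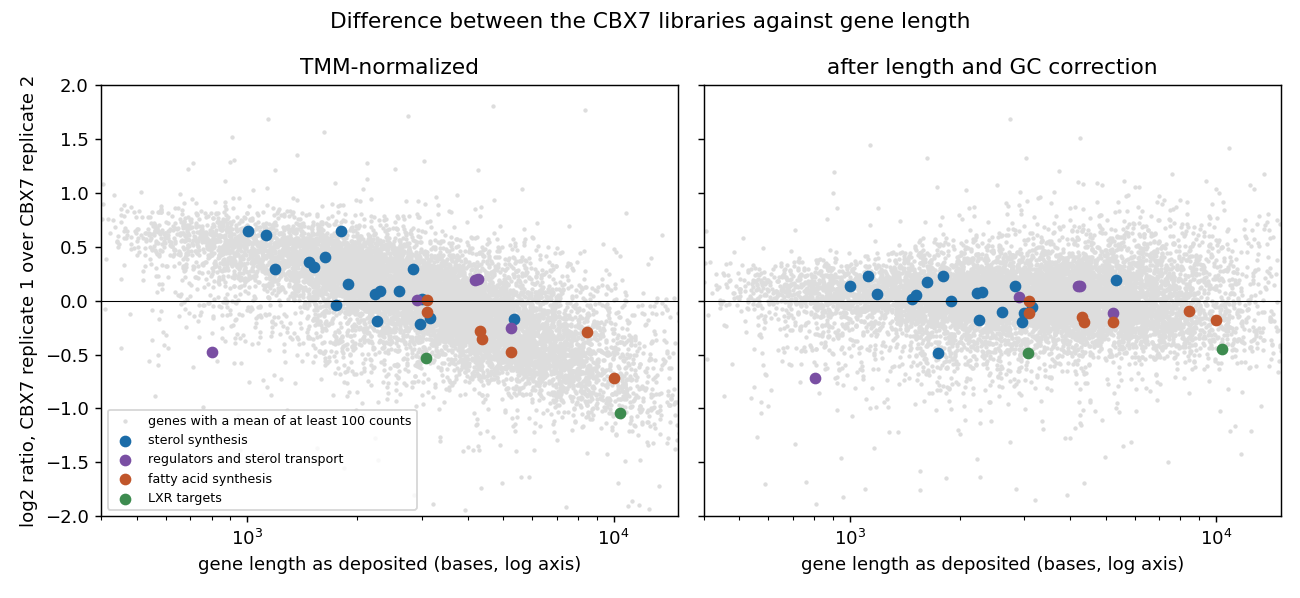
Log2 ratio of CBX7 replicate 1 to CBX7 replicate 2 against gene length (log axis) for the 32 tested genes, coloured by role, over 11077 genes in grey, before (left) and after (right) each library was adjusted for length and GC content. Grey points beyond the axis limits are not drawn. The short PMVK and EBP lie above 0 and the long ACACA and ABCA1 below it on the left, and the Spearman correlation over the 32 genes went from -0.68 to -0.30.

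Once the trend of every library with length and GC content had been removed, the median of the sterol enzymes was 0.059 (14 positive and 4 negative) and that of the fatty acid enzymes -0.031. Again 0 of 32 genes passed an adjusted p under 0.05 (lowest 0.380). At an unadjusted p under 0.05, 3 genes were higher, where 4.25% of all genes were, and 0 were lower, where 3.61% were. These were SCD (log2 fold change 0.35, SE 0.086), MVK (0.29, SE 0.099) and FADS2 (0.20, SE 0.077), with edgeR adjusted p = 0.380, 0.550 and 0.605. Both CBX7 libraries were then above both controls in 8 of 32 genes (25%), where 18.1% of all genes were. They were MVK, PMVK, IDI1, FDFT1, HSD17B7, EBP, SCD and FADS2. None had both below, where 21.6% of all genes did. The log2 fold change of PMVK went from 0.42 to 0.17 and that of MVD from 0.30 to 0.039, whereas that of SCD went from 0.26 to 0.35. Of the fatty acid genes, 6 of 7 then lay above their mean in CBX7 replicate 2 and 2 of 7 in CBX7 replicate 1, and of the sterol genes 11 and 12 of 18. The part of gene length in the remaining differences was not tested.

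How many genes of the pathway were called depended on single libraries. Without CBX7 replicate 1, SCD was higher (log2 fold change 0.49, edgeR adjusted p = 6.61e-05) and ABCA1 was higher, and 2.59% of all genes passed. Without CBX7 replicate 2, 12 of 32 genes passed, where 35.5% of all genes did. In that fit MVK, PMVK, MVD, FDPS, NSDHL, EBP, SREBF1 and FADS2 were higher, from 0.28 (FADS2) to 0.70 (PMVK) on the log2 scale, and ACLY, ACACA, FADS1 and ABCA1 were lower, from -0.25 (ACLY) to -0.61 (ABCA1). In these fits the group left with 1 library is assumed to vary like the other. ABCA1 was thus called in opposite directions by the 2 CBX7 libraries.

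Of 40 further genes of sterol and fatty acid metabolism, 37 were tested. IDI2 and THRSP had 0 counts in every library. The median log2 fold change of the 37 genes was 0.043, 0 of 37 passed an adjusted p under 0.05, and 2 were higher at an unadjusted p under 0.05 with 0 lower, where 3.42% and 1.32% of all genes were. Both CBX7 libraries were above both controls in 7 (18.9%) and below in 4 (10.8%), where 15.4% and 14.8% of all genes were. After the length and GC correction 4 of the 37 were higher and 0 lower at an unadjusted p under 0.05, where 4.25% and 3.61% of all genes were. Then 9 (24.3%) had both CBX7 libraries above and 8 (21.6%) both below, where 18.1% and 21.6% of all genes did. SCARB1, the receptor that takes up cholesterol from high-density lipoprotein, had 71.1 and 68.0 CPM in control cells and 109 and 99.3 CPM in CBX7-overexpressing cells. Both CBX7 libraries stood clear of the controls, at a log2 fold change of 0.58 (SE 0.13, edgeR adjusted p = 0.530). On leaving out CBX7 replicate 1 or 2 in turn the edgeR adjusted p was 0.000329 or 7.27e-08, and after the length and GC correction it was 0.113. ABCG4, a sterol transporter related to ABCG1, had 6 and 5 expected counts in control and 20 and 10 in CBX7 libraries, a log2 fold change of 1.37 (SE 0.53, edgeR adjusted p = 0.951). INSIG2, the paralog of INSIG1, had 20.2 and 18.7 CPM in the control libraries and 17.5 and 16.9 CPM in the CBX7 libraries. On normalized counts both CBX7 libraries were lower, at a log2 fold change of -0.18 (SE 0.14, edgeR adjusted p = 0.951). After the length and GC correction they stayed lower in INSIG2 (-0.22, SE 0.096), whereas the groups overlapped in INSIG1. NR1H2 and NR1H3 encode the liver X receptors themselves. NR1H2 had control values of 36.5 and 35.3 CPM and CBX7 values of 40.5 and 32.8 CPM. NR1H3 had 5.57 and 4.72 CPM in control cells and 7.21 and 5.10 CPM in CBX7-overexpressing cells, and neither gene separated the groups. SCD5, the paralog of SCD, had 20.1 and 18.0 CPM in the control libraries and 21.9 and 22.9 CPM in the CBX7 libraries. Both CBX7 libraries were above the controls, at a log2 fold change of 0.23 (SE 0.14, edgeR adjusted p = 0.951). On TPM values SCD5 overlapped, with 9.36 and 8.71 TPM in control and 8.57 and 11.15 TPM in CBX7 libraries. The groups also overlapped there in INSIG2 and ABCG4, while in SCARB1 both CBX7 libraries remained above both controls.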

How the data were processed

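RNA of T24 cells was sequenced on an Illumina HiSeq instrument, in 2 control and 2 CBX7 libraries. The authors deposited expected counts (88.2% to 88.9% whole), TPM values and gene lengths. The group means, fold changes and p-values of their own comparison in the same table were not used. The submitters' processing notes name cutadapt 1.9.1, HISAT2 2.0.1, HTSeq 0.6.1, DESeq2 and hg19, without role or order. The tool behind the fractional counts is not given in the sources used here.

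Deposited counts were rounded (14 of the 33 genes had a fractional value), passed through filterByExpr and TMM scaling, and tested by edgeR 4.0.16 (R 4.3.3; glmQLFit, glmQLFTest, condition only), with Benjamini-Hochberg adjustment over 14862 genes. SE is the absolute fold change (log2) over the root of F. The correction was an offset per library, fitted with mgcv on deposited gene length and GC content (known for 99.1% of genes). TPM differences used log2(TPM + 1). Alternatives included DESeq2 1.42.0. The fit was tested on simulated data. Library totals limit precision: 3 counts equal 0.119 to 0.144 CPM, which covers counting error only.

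Named genes are all 33 by role, CBX7, and genes of a fixed list of 40 with an unadjusted p under 0.05 and groups that do not overlap, or that are paralogs, partners or sensors of a named gene. Genes, lists and tests were chosen with earlier results of these data known. Positions come from GENCODE release 29 on GRCh38, matched by identifier (96.5% of the table's), and promoter sequences from RefSeq.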

Additional observations from a re-analysis of the deposited data

How the results depend on the processing

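The pathway had 0 genes past an adjusted p of 0.05 under each of DESeq2 size factors, upper-quartile normalization, no filter, a minimum of 10 counts, DESeq2's Wald test, the newer quasi-likelihood method, the length and GC correction, the replicate block, these last used together, and a threshold of 0.10. It had between 0 and 12 on leaving out each replicate, from 0 to 8 higher and 0 to 5 lower at an unadjusted p under 0.05. The 8 and 5 came without CBX7 replicate 2, where 22% of all genes were higher and 21% lower. Over all genes the 3 calls became 67 with the Wald test, 265 with no filter, 5 with the correction, 361 with the replicate block, 107 with correction and block, 1 at a threshold of 0.01, and 45 to 5491 on leaving out each replicate. At an unadjusted p under 0.05, 1 pathway gene was higher with no filter, and 3 were higher with the replicate block, with the correction and with both, where 3.51%, 5.82%, 4.25% and 5.92% of all genes were. The median log2 fold change of the pathway was 0.044 with DESeq2 size factors and 0.044 with the Wald test, -0.048 and -0.059 on TPM values (pseudocounts 1 and 0.1), and 0.038 to 0.069 on leaving out each replicate. Genes with both CBX7 libraries below the controls numbered 2 with DESeq2 size factors, 2 on TPM values and 0 after the correction (added after seeing the data), and those above numbered 4 on TPM values. After the correction 21.6% of all genes lay below. The shares of all genes with DESeq2 size factors and on TPM values are not given here, so those counts have no background.

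Libraries with the same replicate number deviated together (correlation 0.61 over 11077 genes), but with 2 pairs and no label saying what a number marks, they share only a number. With the replicate block SCARB1 had an edgeR adjusted p of 0.0197, and with the block and the correction 0.0309.

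Signs of small fold changes turned as follows, and the cause was not tested. With DESeq2 size factors: CYP51A1 -0.0056, ABCA1 -0.0024. With the Wald test: CYP51A1 -0.0056, ABCA1 -0.0022. With upper-quartile normalization: CYP51A1 -0.0053, ABCA1 -0.0063. With the replicate block: ABCA1 -0.070. After the correction: ACAT2 -0.023, HMGCS1 0.085, TM7SF2 -0.060, SCAP -0.055, ACACA 0.045, FASN -0.039. With block and correction: ACAT2 -0.023, HMGCS1 0.085, TM7SF2 -0.075, SCAP -0.056, ACACA 0.043, FASN -0.040. On TPM values: ACAT2 -0.059, IDI1 -0.040, CYP51A1 -0.10, MSMO1 -0.057, NSDHL -0.0015, SC5D -0.19, DHCR7 -0.027, SCAP -0.056, ABCA1 -0.15, MYLIP -0.031. On leaving out each replicate, 18 genes changed sign, with lowest to highest values of: ACAT2 -0.098 to 0.20, HMGCS1 -0.13 to 0.044, MVD -0.054 to 0.59, FDPS -0.041 to 0.31, SQLE -0.20 to 0.027, CYP51A1 -0.084 to 0.087, MSMO1 -0.058 to 0.15, NSDHL -0.075 to 0.32, SC5D -0.040 to 0.15, STARD4 -0.28 to 0.20, SREBF2 -0.17 to 0.095, SCAP -0.054 to 0.13, ACLY -0.25 to 0.033, ACACA -0.51 to 0.22, FASN -0.12 to 0.18, FADS1 -0.28 to 0.081, ABCA1 -0.61 to 0.44, MYLIP -0.26 to 0.37. Depth limits what can be said of ABCG1, ABCG4 and MYLIP, which have few counts.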

Other observations

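Of the epithelial markers, KRT19, a keratin of simple epithelia, had control values of 6.54 and 5.72 CPM and CBX7 values of 18.5 and 12.8 CPM, a log2 fold change of 1.35 (SE 0.23, edgeR adjusted p = 0.352). GATA3, a transcription factor of the urothelium, had 3 and 4 expected counts in the control libraries and 14 and 22 in the CBX7 libraries. Of the markers of other cell types, COL1A1, a collagen of fibroblasts, had 60 and 54 expected counts in the control libraries and 87 and 106 in the CBX7 libraries. The groups overlapped in DCN and CD14: DCN, a proteoglycan of fibroblasts, had 10 and 6 counts in control and 3 and 7 in CBX7 libraries, and CD14, a marker of monocytes, had 19 and 29 in control and 26 and 14 in CBX7 libraries. KRT18 had 1037 and 957 CPM in control and 1402 and 1047 CPM in CBX7 libraries. On normalized counts both CBX7 libraries were above both controls in KRT19, GATA3, COL1A1 and KRT18, where 15.4% of all genes tested were. None of the 4 passed an adjusted p under 0.05. The groups overlapped in the other markers tested, KRT7, KRT8 and EPCAM as well as CD14. On TPM values GATA3 overlapped (0.17 and 0.35 TPM in control, 0.25 and 0.82 TPM in CBX7 libraries). COL1A1 overlapped there too (1.03 and 1.26 TPM in control, 0.88 and 4.4 TPM in CBX7 libraries), while KRT8, KRT18 and KRT19 separated. LUM, another proteoglycan of fibroblasts, had 3 and 3 counts in control and 5 and 8 in CBX7 libraries and was not tested.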
